A study of Mus musculus with 4 samples.

Results

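Sphingosine 1-phosphate (S1P) and lysophosphatidic acid (LPA) are lipid mediators that act on G protein-coupled receptors of endothelial and blood cells. The gene set described here holds 10 genes of their synthesis, export, sensing and breakdown, chosen by name for their roles, with earlier results of these data known: Sphk1, Spns2, S1pr1, S1pr2, S1pr3, Enpp2, Lpar4, Lpar6, Sgpl1 and Plpp3. They were read by 12 of the 39429 gene probes of a 1-colour Agilent array, Plpp3 under its older name Ppap2b. All 10 passed the filter on dim probes and belong to the 17362 genes tested.

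The arrays measured total RNA of CD31-positive spleen cells of the mouse, which the labels call endothelial cells. All mice carried 1 Ackr4 allele replaced by green fluorescent protein (GFP) and 1 wild-type allele (Ackr4GFP/wt), so that both groups share this genotype and no mouse without the reporter was measured. GFP fluorescence split the living, CD45-negative cells into an ACKR4-positive and an ACKR4-negative fraction. This was done in 2 independent sorts, each with cells of 2 to 3 pooled mice, and gave 2 arrays per group from amplified RNA. Replicate 1 and replicate 2 were read as the 2 sorts, from the mouse number in the titles, and values of a group are given in that order.

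Sphingosine kinases make S1P inside the cell, and endothelial cells release it through the transporter encoded by Spns2. Outside the cell it keeps blood vessels tight through S1PR1 and guides lymphocytes, including those of the splenic marginal zone. LPA is made in the extracellular space by autotaxin, the product of Enpp2, and membrane phosphatases such as that of Plpp3 remove the phosphate from both lipids.

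Levels are given as log2 signal minus the 75th percentile of the array, so a level of 0 equals that percentile, and levels of different probes are not comparable with each other. Differences are ACKR4-positive minus ACKR4-negative, as log2 fold change ± standard error of the limma fit (n = 2 arrays per group), and a gene was called when its Benjamini-Hochberg adjusted p over all tested genes was under 0.05. The 75th percentile of the signal lay between 590.3 and 949 on the 4 arrays, and 54.9% to 58.3% of probes were well above background. The control RNA added to each sample had a median signal of 837 on the array of ACKR4-negative replicate 1, while the remaining 3 arrays gave 2749 to 3489. Ackr4 itself, the gene of the sorting reporter, was at -7.53 and -7.50 in the ACKR4-negative samples, against -0.21 and 2.55 in the ACKR4-positive ones, and only the latter were well above background. The pan-endothelial markers, among them Pecam1 and Cdh5, were well above background on all 4 arrays in 10 of 10 cases, of which 3 were called lower in ACKR4-positive cells (Kdr, Emcn and Esam), and 1 was called higher only with the sort as a block (Tek, 1.81). Among lists of blood cells, 7 of 8 megakaryocyte and platelet markers were called lower (8 with the sort as a block). Of the lymphocyte markers 1 of 5 was called lower, and of the erythroid markers 1 of 4 tested. For macrophage markers this was 0 of 3 tested, and for granulocyte and monocyte markers 0 of 3 tested (1 and 2 lower with the sort as a block). Of the lymphatic markers, 0 of 2 tested were called.

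ACKR4-positive cells had lower signal of Enpp2, of the S1P exporter Spns2 and of the LPA receptor Lpar6, and higher signal of the lipid phosphatase Plpp3. Enpp2 was 215-fold, Spns2 8.03-fold and Lpar6 3.70-fold lower, and Plpp3 was 5.78-fold higher. The kinase Sphk1, the lyase Sgpl1 and the receptor S1pr3 had overlapping values in both groups. With 3 genes fallen and 1 risen, 4 of 10 were called, against 5.62% of all tested genes (3.71% lower and 1.91% higher). With the sort as a block, 6 of the 10 fell and 1 rose, against 15.3% of all tested genes (8.55% lower and 6.75% higher). The groups did not overlap for 7 of the 10 genes, 6 lower and 1 higher in ACKR4-positive cells, where 44.9% of all tested genes did not overlap (21.6% lower and 23.3% higher). The median log2 fold change over the 10 genes was -1.24, against 0.04 over all tested genes. In a bulk sample, fewer cells that express a gene and less RNA of it per cell cannot be told apart.

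**Figure D1:**
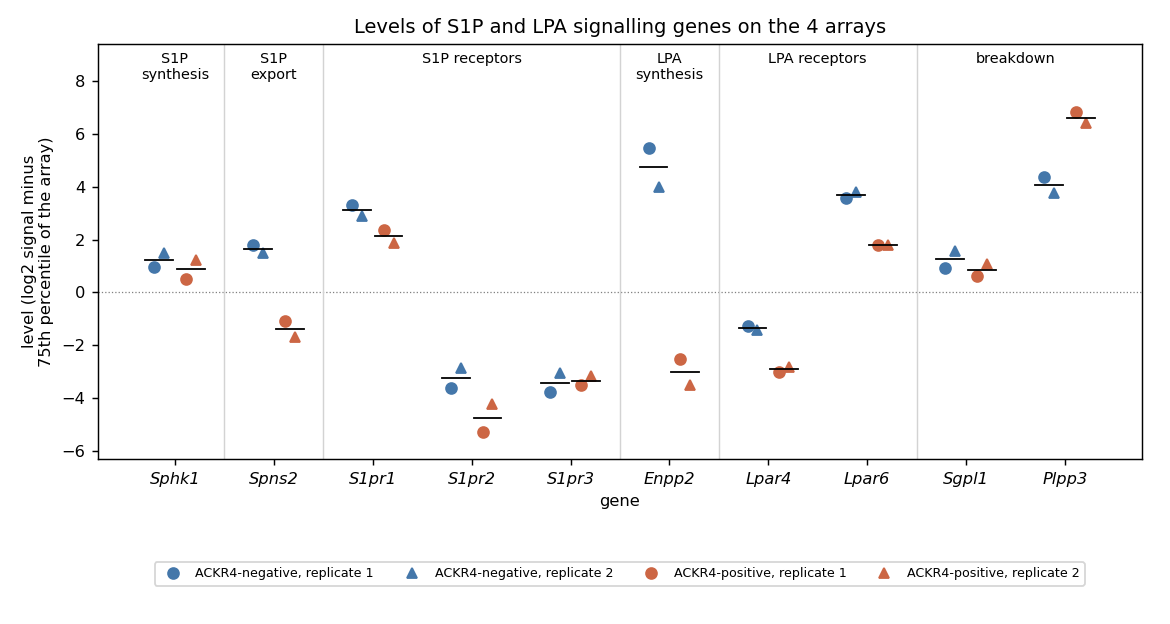
Level of each of the 10 genes on the 4 arrays, as log2 signal minus the 75th percentile of the array (vertical axis), with genes grouped by role; circles are replicate 1, triangles replicate 2, and bars the mean of the 2 arrays of a group. Enpp2 shows the widest gap, from 5.45 and 4.01 in ACKR4-negative to -2.53 and -3.50 in ACKR4-positive cells, and Plpp3 is the gene with both ACKR4-positive values on top.

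Sphk1 encodes a kinase that phosphorylates sphingosine to S1P. Its levels were 0.98 and 1.48 on the ACKR4-negative arrays and 0.52 and 1.25 on the ACKR4-positive arrays. The groups overlapped, since ACKR4-positive replicate 2 lay above ACKR4-negative replicate 1. The difference was -0.35 ± 0.39 (95% interval -1.38 to 0.69; limma adjusted p = 0.796). A second, dimmer probe of the gene, which also lay well above background on all 4 arrays, gave -0.09 ± 0.41. Neither probe placed the change of Sphk1 on one side of 0. Sphk2, the gene of the other sphingosine kinase, stood at 0.44 and 1.12 in the ACKR4-negative samples, against 0.51 and 0.95 in the ACKR4-positive ones, with a fold change of -0.05 ± 0.37 on the log2 scale.

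Spns2 encodes the transporter through which endothelial cells release S1P. Its levels were 1.79 and 1.49 in ACKR4-negative cells. They were -1.06 and -1.67 in ACKR4-positive cells. The nearest arrays of the groups lay 2.55 apart, while replicates of a group lay 0.30 and 0.60 apart. Spns2 fell by 3.01 ± 0.34 on the log2 scale (95% interval -3.91 to -2.10; limma adjusted p = 0.0195), with differences of -2.85 in sort 1 and -3.16 in sort 2. Its call was lost without ACKR4-negative replicate 1 (-2.86, adjusted p = 0.0848) and without ACKR4-negative replicate 2 (-3.16, adjusted p = 0.0629). The probe lies on the minus strand of chromosome 11 at 72265167 to 72265226 (mm9), within the transcript of the gene as the array design assigns it.

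S1pr1 encodes the receptor through which S1P strengthens endothelial contacts, and its levels were 3.32 and 2.91 in the ACKR4-negative samples, against 2.38 and 1.89 in the ACKR4-positive ones. Both ACKR4-positive values were the lower ones, in both sorts by a similar amount (-0.94 and -1.02). The difference of -0.98 ± 0.34 (95% interval -1.87 to -0.09) was not called (limma adjusted p = 0.259). With the replicate number as a block, which compares the cells within each sort, it was called (adjusted p = 0.0388).

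S1pr2 encodes a receptor that opposes cell movement. Its levels were -3.62 and -2.85 in the ACKR4-negative samples, against -5.27 and -4.20 in the ACKR4-positive ones, again without overlap. The difference of -1.50 ± 0.51 (95% interval -2.85 to -0.15; limma adjusted p = 0.254) was not called without the block. Within sorts it was called (adjusted p = 0.0118). Its replicates differed by 0.77 and 1.07 within the groups, more than those of S1pr1. Background correction by normexp reduced the difference to -0.67, the smallest among the alternatives. The ACKR4-positive levels were well above background but near the lowest such level of their arrays, -6.03 and -5.31.

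S1pr3 encodes a receptor of endothelium and smooth muscle. Its levels of -3.78 and -3.05 in the ACKR4-negative samples, against -3.51 and -3.15 in the ACKR4-positive ones, overlapped. The difference was 0.09 ± 0.38, with an interval from -0.91 to 1.08 (limma adjusted p = 0.961), and its sign changed between sorts (0.27 and -0.10). Whether the 3 receptors changed by different amounts was not tested.

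**Figure D2:**
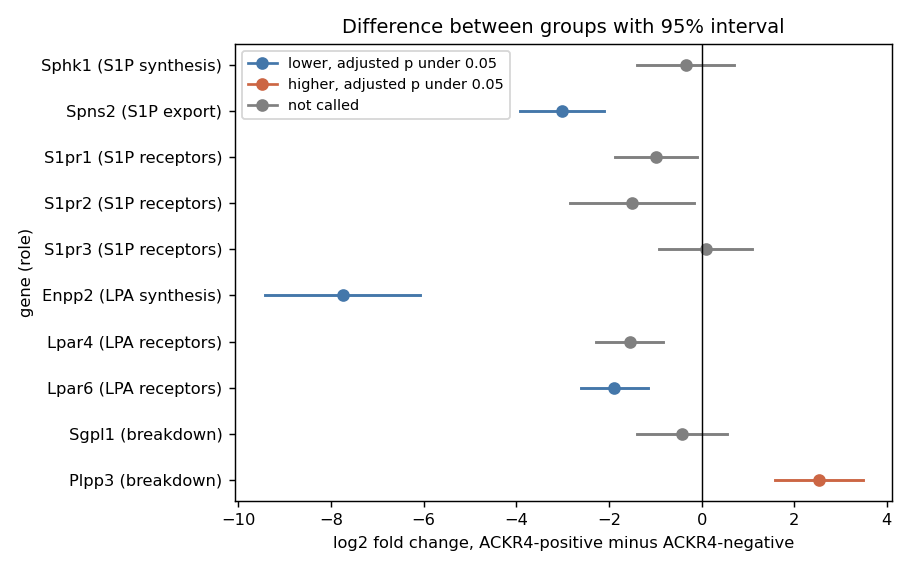
Log2 fold change of each gene, ACKR4-positive minus ACKR4-negative (horizontal axis), with its 95% interval from the fit; blue marks a fall and orange a rise with an adjusted p under 0.05, grey no call. Enpp2 at -7.75, Spns2 at -3.01 and Lpar6 at -1.89 are the blue points and Plpp3 at 2.53 the orange one.

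Enpp2 encodes autotaxin, a secreted lysophospholipase D that makes LPA from lysophosphatidylcholine. Its probe lies on the minus strand of chromosome 15 at 54670921 to 54670980 (mm9). The sequence of the probe is shown because the largest difference of the set rests on this 1 oligo, with capitals for its last 3 bases, a stop codon in a reading frame that is open through the whole oligo.
Enpp2 probe: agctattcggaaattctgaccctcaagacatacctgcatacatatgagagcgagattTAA

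The levels of Enpp2 were 5.45 and 4.01 in the ACKR4-negative samples, against -2.53 and -3.50 in the ACKR4-positive ones. Replicates lay 1.44 and 0.97 apart, while the nearest arrays of the groups lay 6.54 apart. Enpp2 fell by 7.75 ± 0.63 on the log2 scale (95% interval -9.43 to -6.07; limma adjusted p = 0.0117), with differences of -7.98 in sort 1 and -7.51 in sort 2. The probe was well above background on all 4 arrays, so the fold is not limited by background. Enpp2 was called in 14 of 14 alternatives, with values from -8.47 to -6.95.

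The summed signal of erythroid markers, given below for Mfsd2b, and that of macrophage markers overlapped between the groups. The macrophage sum ranged from 0.485 to 1.13 on the ACKR4-negative arrays, against 0.498 to 0.840 on the ACKR4-positive ones. For 6 other lists, of marginal sinus, stromal and blood cell markers, the sum was lower in both ACKR4-positive samples than in both ACKR4-negative ones. The signal of Enpp2 was lower in the same way, as were the sums of the capillary and arterial lists given below. The pan-endothelial list also summed lower, to 373 to 406 in ACKR4-negative and 238 in both ACKR4-positive samples. Of 4 marginal sinus and high endothelial markers, Glycam1 and Chst4 were well above background on 0 arrays, and the summed signal of the list, relative to the 75th percentile, was 0.443 to 2.29 in ACKR4-negative and 0.146 to 0.177 in ACKR4-positive cells. The highest sum is that of 1 array, where Madcam1 stood at 1.03, against -3.70 in the other ACKR4-negative sample and -3.70 and -3.95 in the ACKR4-positive ones. Of the 2 tested, Madcam1 and Fut7, 0 were called (1 lower with the replicate block). The 6 fibroblastic reticular markers summed to 0.713 to 1.26 and 0.432 to 0.583, with 0 of 4 tested called (2 lower with the replicate block). Pdgfra and Cxcl13 were not well above background in ACKR4-positive cells, and Pdgfra was well above it on only 1 ACKR4-negative array. Dpt was well above background in neither group. The 7 mural markers summed to 10.6 to 44.8 and 0.369 to 1.31, with 2 of 6 tested called lower (5 with the replicate block). The sums in ACKR4-negative cells come mostly from Acta2, at 3.26 and 5.42, against -2.45 and 0.12 in ACKR4-positive cells. Acta2 was called only with the replicate block. Rgs5 and Myh11 were not well above background in ACKR4-positive cells, and Rgs5 was well above it on only 1 ACKR4-negative array. The 8 megakaryocyte and platelet markers, 7 of them called lower (8 with the replicate block), summed to 88.3 to 210 and 0.353 to 1.82, and Itga2b, Gp5 and Tubb1 were not well above background in ACKR4-positive cells. The 4 granulocyte and monocyte markers summed to 3.16 to 6.29 and 0.683 to 2.07, and the 5 lymphocyte markers to 2.53 to 3.53 and 1.16 to 2.51. The part of these cells in the Enpp2 difference was not tested.

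The LPA receptors Lpar4 and Lpar6 belong to the purinergic branch of the LPA receptors, apart from the group of Lpar1 to Lpar3. Lpar4 had levels of -1.28 and -1.41 in the ACKR4-negative samples, against -2.99 and -2.80 in the ACKR4-positive ones. Its replicates lay within 0.19 of each other in both groups, and the groups did not overlap. The difference of -1.56 ± 0.27 (95% interval -2.27 to -0.84) narrowly missed the threshold (limma adjusted p = 0.0529). Quantile normalization gave a call (-1.52, adjusted p = 0.0462), as did a comparison within sorts (adjusted p = 0.0107).

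Lpar6 was read by 2 probes on the plus strand of chromosome 14, at 73639469 to 73639528 and at 73639502 to 73639561 (mm9), which overlap. Both oligos share 27 bases. The brighter Lpar6 probe had levels of 3.57 and 3.82 in the ACKR4-negative samples, against 1.80 and 1.81 in the ACKR4-positive ones. The nearest arrays of the groups lay 1.76 apart, and the ACKR4-positive arrays almost coincided. Lpar6 fell by 1.89 ± 0.27 on the log2 scale (95% interval -2.61 to -1.17; limma adjusted p = 0.0341). The other probe gave -1.92 ± 0.29, which is not an independent reading since the oligos overlap. The call was lost when any 1 of the 4 arrays was left out (adjusted p = 0.0962 to 0.204), with values of -2.01 to -1.76, and without a filter on dim probes (adjusted p = 0.0519).

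Breakdown of the lipids was represented by Sgpl1 and Plpp3. Sgpl1 encodes the lyase that cleaves S1P irreversibly inside the cell, and its levels were 0.94 and 1.57 in the ACKR4-negative samples, against 0.61 and 1.07 in the ACKR4-positive ones. The groups overlapped and the difference was -0.42 ± 0.37 (95% interval -1.39 to 0.56; limma adjusted p = 0.731).

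Plpp3 encodes a phosphatase of the cell surface that removes the phosphate from LPA and S1P. Its levels were 4.38 and 3.77 in the ACKR4-negative samples, against 6.81 and 6.40 in the ACKR4-positive ones. Both ACKR4-positive values lay above both others. Plpp3 rose by 2.53 ± 0.36 (95% interval 1.59 to 3.47; limma adjusted p = 0.0317), with differences of 2.43 in sort 1 and 2.63 in sort 2. The call was lost when any 1 array was left out (adjusted p = 0.0554 to 0.132, values of 2.23 to 2.83), and with quantile normalization (2.73, adjusted p = 0.0817). Its probe lies on the plus strand of chromosome 4 at 104905037 to 104905096 (mm9).

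Endothelial marker lists moved beside these differences. Capillary markers, 5 of 5 called lower, summed to 427 to 431 in ACKR4-negative and 21.1 to 29.0 in ACKR4-positive cells, and arterial markers, 5 of 7 called lower (7 with the replicate block), to 63.8 to 88.1 and 7.29 to 13.5. Sox17, Dll4 and Gja5 of the arterial and Btnl9 of the capillary list were not well above background in ACKR4-positive cells. Sinusoidal markers, with 1 of 6 called higher (Clec4g; 2 with the replicate block), summed to 132 to 169 and 413 to 573. The higher sum comes mostly from Clec4g, at 2.31 and 3.59 in the ACKR4-negative samples, against 7.43 and 8.57 in the ACKR4-positive ones. Stab1 and Stab2 were also without overlap on the higher side, Mrc1 (-1.03) and Fcgr2b (-0.72) on the lower side, and Lyve1 overlapped. Without the block 0 of these 5 were called, and with it Stab1 was called higher. Venous markers, with 1 of 4 called higher and 1 lower, summed to 28.8 to 38.4 and 31.1 to 32.1. The part of the mix of vessel types in the values of Enpp2, Spns2, Lpar6 and Plpp3 was not tested.

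Promoters of 8 of the 10 genes were found in a RefSeq table of the build GRCm38.p6. Those of Spns2 and Lpar6, which fell, and of Plpp3, which rose, are shown for their 250 bases before the transcription start, since these genes moved in opposite directions. Capitals mark matches on either strand to GATAA (the core bound by GATA factors), TGGGAA (the core bound by the Notch effector RBPJ) and GGAAG (a core bound by ETS factors). The last 2 motifs can overlap each other.
Spns2, minus strand, chr11:72475028-72475277: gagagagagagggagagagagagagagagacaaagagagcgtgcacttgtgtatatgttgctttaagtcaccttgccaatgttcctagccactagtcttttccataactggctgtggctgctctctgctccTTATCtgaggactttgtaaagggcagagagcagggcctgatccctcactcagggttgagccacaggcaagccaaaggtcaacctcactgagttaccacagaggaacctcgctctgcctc
Lpar6, plus strand, chr14:73237641-73237890: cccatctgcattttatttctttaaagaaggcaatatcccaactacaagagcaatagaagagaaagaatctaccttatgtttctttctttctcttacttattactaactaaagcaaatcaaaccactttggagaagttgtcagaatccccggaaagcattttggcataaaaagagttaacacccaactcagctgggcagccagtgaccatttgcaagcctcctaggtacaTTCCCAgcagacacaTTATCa
Plpp3, plus strand, chr4:105157097-105157346: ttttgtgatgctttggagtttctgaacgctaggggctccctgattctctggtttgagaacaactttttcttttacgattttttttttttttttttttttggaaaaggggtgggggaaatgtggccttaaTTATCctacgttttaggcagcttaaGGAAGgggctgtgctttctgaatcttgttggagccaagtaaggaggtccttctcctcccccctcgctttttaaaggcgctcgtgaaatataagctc

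Each of the 3 windows held 1 match to GATAA, which 22.6% of all 32851 promoter windows of this length hold. Lpar6 also held 1 match to TGGGAA (21.6% of all windows) and Plpp3 held 1 match to GGAAG (64.1% of all windows). These matches describe the letters only.

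The genes around the set were taken from a list of 49 other genes of the S1P and LPA pathways, of which 37 were tested. Of these, 1 fell, 0 rose and 36 were not called in the limma fit, where 5.62% of all tested genes were called. Their median log2 fold change was -0.06. At an unadjusted p under 0.05 there were 4 lower and 1 higher of the 37, and 6 lower and 1 higher of the set of 10, beside 16.3% of all tested genes (9.13% lower and 7.12% higher). With the replicate block 2 of the 37 fell and 1 rose, and 6 of the 10 fell and 1 rose, where 15.3% of all tested genes were called (8.55% lower and 6.75% higher). A further 11 listed genes were well above background on 0 of the 4 arrays, among them the receptor genes Lpar1, Lpar2, Lpar3 and S1pr5.

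**Figure D3:**
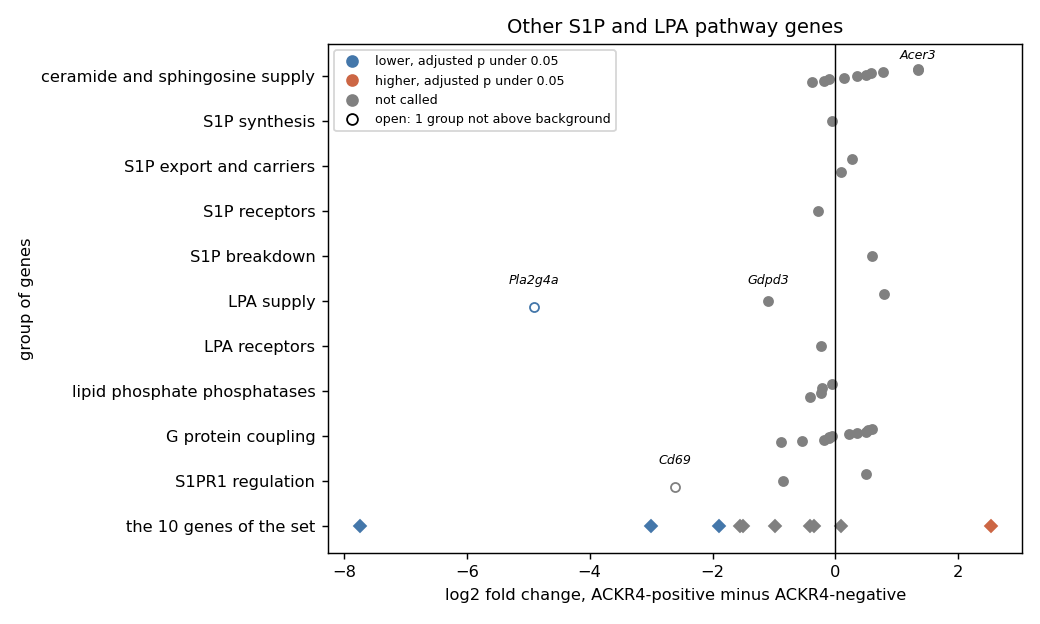
Log2 fold change (horizontal axis) of the 37 tested genes of the wider pathway list by group (circles) and of the 10 genes of the set (diamonds), blue for a fall and orange for a rise with an adjusted p under 0.05, grey for no call. Open circles are measured values where 1 group was not well above background, so that only a bound holds. Most of the wider list lies close to 0, and Pla2g4a, an open circle with a bound of at least 9.30-fold, is the 1 called gene.

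The gene that fell was Pla2g4a, which encodes cytosolic phospholipase A2, an enzyme that releases fatty acids and leaves lysophospholipids. Its levels were -3.02 and -1.89 in the ACKR4-negative samples, against -7.44 and -7.30 in the ACKR4-positive ones. The ACKR4-positive arrays were not well above background, so that the gene passed the filter through the ACKR4-negative group and the size of the fall is known as a lower bound, at least 9.30-fold. The bound sets the mean of the bright group against, on each dim array, the higher of its own level and the lowest level well above background. The call (limma adjusted p = 0.0137) rests on values at background in 1 group, and with normexp background correction it was lost (-1.67, adjusted p = 0.0943).

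In the other groups of the list, the gene with the smallest p was not called. Acer3, a ceramidase gene of sphingosine supply, differed by 1.34 ± 0.39 (limma adjusted p = 0.186), Sgpp1, an S1P phosphatase gene, by 0.59 ± 0.32, and Abcc1, a transporter gene, by 0.27 ± 0.39. The receptor genes S1pr4 and Lpar5 stood at -0.29 ± 0.52 and -0.24 ± 0.31, and Plpp2, a relative of Plpp3, at -0.42 ± 0.32. Cd69, whose product removes S1PR1 from the cell surface, had levels of -3.31 and -4.35 against -7.31 and -5.60, the latter not well above background. The bound between group means was 3.57-fold lower (limma adjusted p = 0.159), but the measured differences were unequal, -4.00 in sort 1 and -1.24 in sort 2. With the replicate block, the ceramidase gene Asah2 (1.35, adjusted p = 0.0166) and the phosphodiesterase gene Gdpd3 (-1.10, adjusted p = 0.0290) were also called.

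Mfsd2b, which encodes the S1P exporter of red cells and platelets, was read by 2 probes that disagree. The brighter one, on chromosome 12 at 4869246 to 4869305 (mm9), was at 6.16 and 7.14 in the ACKR4-negative samples, against 6.14 and 7.34 in the ACKR4-positive ones, a difference of 0.09 ± 0.58. The dimmer one, at 4870604 to 4870663, was at -1.87 and -1.72 against -7.79 and -7.26, where it was not well above background. By that probe, which passed the filter through the ACKR4-negative group, Mfsd2b was at least 14.7-fold lower (limma fit over all probes, adjusted p = 0.00731). Which probe reads the transcript was not tested. It is named here after its values were seen, and the platelet markers given above for Enpp2 moved with the dimmer probe, and their part in it was not tested. The 6 erythroid markers, 1 of 4 tested called lower, summed to 26.8 to 473 in ACKR4-negative and 18.1 to 69.2 in ACKR4-positive cells.

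**Figure D4:**
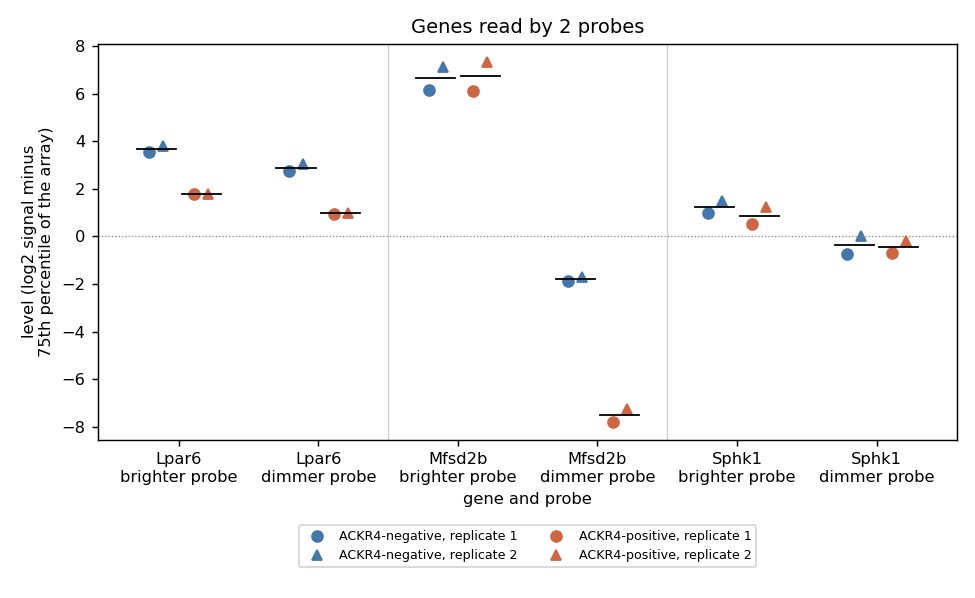
Levels on the 4 arrays (vertical axis, log2 signal minus the 75th percentile of the array) of the 2 probes each of Lpar6, Mfsd2b and Sphk1; circles are replicate 1, triangles replicate 2, and bars the group means. The group differences are -1.89 and -1.92 for the probes of Lpar6, -0.35 and -0.09 for those of Sphk1, and 0.09 for the brighter probe of Mfsd2b. The dimmer one, not well above background in ACKR4-positive cells, is at least 14.7-fold lower there.

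For each called gene of the set, the genes with the most similar pattern were found by the root mean square difference of the 4 levels, each gene centred on its own mean. For Enpp2 these were Nrp1, a co-receptor of VEGF and semaphorins (0.341), Col18a1, a basement membrane collagen (0.350), and Tubb1, a tubulin of platelets (0.439). For Spns2 they included Frmd4a and Sgca (0.0858 and 0.0869), and for Lpar6 they were Esam, an endothelial adhesion molecule (0.0269), Hid1 and Trim47. For Plpp3 they were Cd55b, Vldlr, a receptor of lipoproteins, and Kcnh1 (0.0669 to 0.104). The measure rests on 4 arrays only. Vldlr in ACKR4-negative and Nrp1 and Tubb1 in ACKR4-positive cells were not well above background, so their likeness rests partly on values at background.

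**Figure D5:**
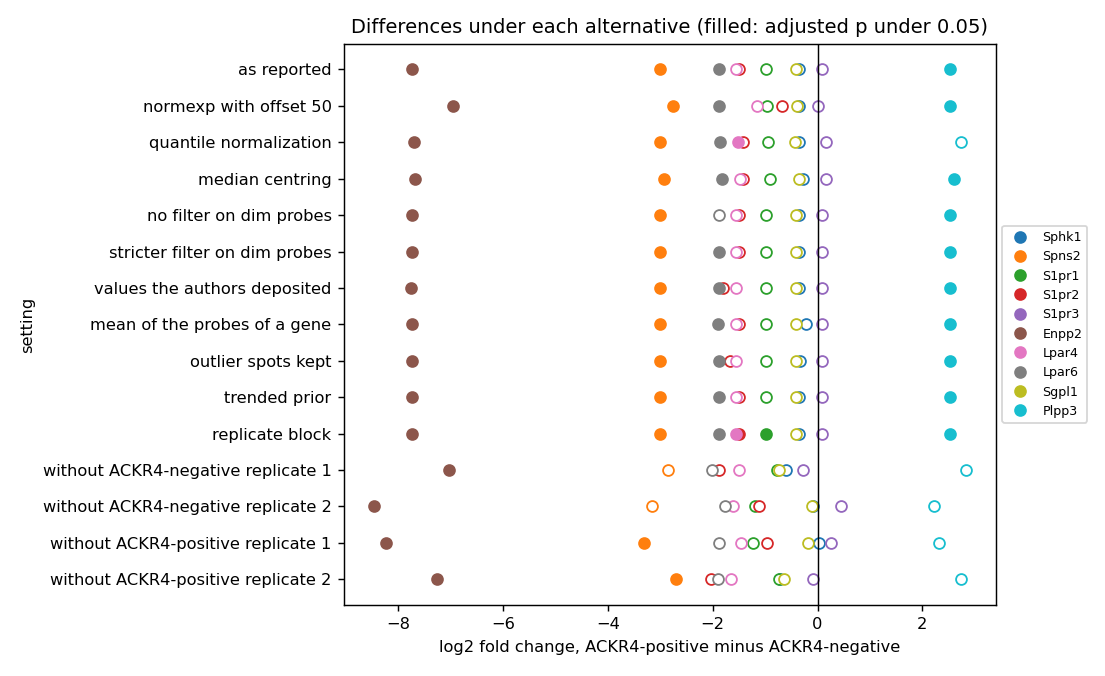
Log2 fold change (horizontal axis) of the 10 genes as reported and under each of 14 alternatives (vertical axis), with filled points where the adjusted p is under 0.05. Enpp2 stays filled throughout at -8.47 to -6.95, while Lpar6 and Plpp3 keep their side of 0 and turn open when an array is left out.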

How the data were processed

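The scanner files are those the authors made with Agilent Feature Extraction, version 10.7.3.1. According to their headers the intensity in these files had its background subtracted and spatial trends removed. It carried surrogate values where it was low, and was not scaled between arrays. The slide and scan were the same for all 4 arrays. Spots flagged as outliers (1.91% to 1.96%) were dropped, and log2 intensity was averaged over what remained of the 4 spots of a probe before the 75th percentile of the array was subtracted. The filter kept a probe if more than 50% of its spots exceeded background clearly on each array of a group. The brightest probe kept stood for its gene. Of all probes, 27508 were named by accession through RefSeq and 8210 kept the name in the file. The group comparison used lmFit and eBayes of limma 3.58.1 under R 4.3.3, as a 2-sided test, and the scripts were tested on simulated data. The table of processed intensities that the authors deposited, which correlated with the scanner values at 1.00 above its floor of 15, served as an alternative. In that table the 75th percentile lay between 1498 and 1506 on the 4 arrays, so its values were already close to equal scale.

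Both arrays of a sort carry 1 mouse number in their titles, while the protocol pools 2 to 3 mice per sort. The number was read as the sort, which pairs the arrays. Deviations from the group means correlated at 0.605 over genes between arrays of the same number. The fit without this block, which leaves the pairing out, is the reported one, and calls with the block are given beside it.

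The genes, the wider pathway list and the 14 lists of cell type markers were chosen with earlier results of these data known. Genes named are all members, called genes of the list and the one with the smallest p in each of its groups, and the 3 genes most like each called member, except that some items under this rule are not reported here. Kdr, Emcn, Esam, Tek, Clec4g and the other sinusoidal markers, Asah2, Gdpd3 and Mfsd2b were named after their values were seen. Alternatives covered background correction, normalization, scaling, the filter on dim probes, the source of values, the probe of a gene, outlier spots, the prior, the replicate block and each array left out. No block for the slide could be fitted. Figures were drawn with matplotlib 3.10.9.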

Additional observations from a re-analysis of the deposited data

How the results depend on the processing

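The 10 genes in 14 alternatives gave 140 values. Direction and call were kept in 121 of them, with 12 calls lost, 4 gained and 3 signs reversed. Genes that stayed uncalled count among those kept, and all lost calls were those of Spns2, Lpar6 and Plpp3. With each array left out, Sphk1 ranged from -0.71 to 0.019 and S1pr3 from -0.28 to 0.45, both never called, and Mfsd2b from -0.51 to 0.69. The mean of its 2 probes, which takes in the dim one, gave Mfsd2b -2.82 (adjusted p = 0.0371). Of the 10 genes, 3 fell and 1 rose as reported. With the replicate block 6 fell, and the rise was lost (0) with quantile normalization. With each array left out, 1 to 2 fell and 0 rose. Such fits have a group of 1 array, assumed to vary like the other group. Over all genes, 644 fell and 332 rose, against 1484 and 1172 with the replicate block, 276 and 165 with the stricter filter on dim probes (which tests fewer genes), and 312 to 597 and 75 to 295 with each array left out. Of the other pathway genes, 1 fell and 0 rose as reported. With the mean of probes 2 fell, with the replicate block 2 fell and 1 rose, and with normexp or the stricter filter 0 fell, where the latter leaves Pla2g4a untested. The cause of the other changes was not tested. Apart from these and S1pr1, S1pr2, Lpar4, Asah2 and Gdpd3, the replicate block changed no call of the 10 genes or the wider list. No slide block was run, since all arrays shared a slide. The number of arrays limits the precision of each value.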
